A study of Mus musculus with 6 samples.

Results

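The FXYD proteins and the beta subunits of the sodium pump were described as one gene family in primary oviductal muscle cells of the mouse, with 8 genes of the 54232 in the deposited count table. The 8 genes were Fxyd1, Fxyd3, Fxyd5, Fxyd6 and Fxyd7, which encode small regulators of the pump, and Atp1b1, Atp1b2 and Atp1b3, which encode its beta subunits. The set was chosen by family name around Fxyd6, with earlier results of these data known, and it leaves out Fxyd2, Fxyd4 and Atp1b4. Fxyd6 was selected on its strong rise in these same libraries. Its change is therefore given as a description with no test, and the other 7 genes are read from a fit over all genes. Of the 8 genes, 7 passed the filter on low counts and Fxyd7 did not.

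RNA-seq had been performed on muscle cells isolated from the oviducts of WT and Pbrm1 conditional knockout (cKO) mice on day 2 of pregnancy, and each group has 3 libraries. Pbrm1 encodes PBRM1 (BAF180), a subunit of the PBAF form of the SWI/SNF chromatin remodeling complex. Females were 8 to 12 weeks old and had been mated with stud males in both groups, and their strain was not given in the labels. The labels call the controls WT and the other group KO, while the study describes its controls as floxed Pbrm1 fl/fl littermates and its knockouts as Pbrm1 fl/fl with a cre expressed from the progesterone receptor gene (Pgr). Recombination was thus limited to cells that have expressed Pgr. The cells were freed from minced oviduct with trypsin, collagenase and dispase, filtered, and kept in culture with serum for some hours before RNA extraction. No sort or marker selected the muscle cells. Whether each library stands for 1 animal or for pooled animals is not in the labels, so p-values measure the spread between these libraries only.

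The sodium pump (Na,K-ATPase) moves sodium out of the cell and potassium into it at the cost of ATP, and keeps up the gradients on which membrane potential, cell volume and sodium-coupled transport rest. An alpha subunit carries the catalytic and ion-binding sites, and a glycosylated beta subunit is needed for folding, for delivery to the membrane and for part of the affinity for potassium. FXYD proteins span the membrane once beside the alpha subunit and tune the affinity of the pump for its ions in a manner that depends on the tissue. In smooth muscle, the pump works together with the sodium-calcium exchanger and so bears on the calcium that drives contraction.

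The family is named for a short signature next to the membrane-spanning segment, a proline followed by phenylalanine, any residue, tyrosine and aspartate. The coding stretch around the signature is shown for the 7 Fxyd genes because it is the part that all of them share. Sequences are from the spliced coding sequence of 1 GENCODE M21 transcript per gene (GRCm38), 5′ to 3′, and the capitals mark the 5 codons of the signature.
Fxyd1: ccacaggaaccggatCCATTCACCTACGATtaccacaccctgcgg
Fxyd2: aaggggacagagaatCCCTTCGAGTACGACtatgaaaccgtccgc
Fxyd3: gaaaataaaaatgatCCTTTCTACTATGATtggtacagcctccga
Fxyd4: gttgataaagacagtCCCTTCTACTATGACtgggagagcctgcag
Fxyd5: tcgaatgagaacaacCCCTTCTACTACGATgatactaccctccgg
Fxyd6: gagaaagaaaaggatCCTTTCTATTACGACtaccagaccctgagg
Fxyd7: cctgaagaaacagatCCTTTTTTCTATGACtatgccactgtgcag
Over these 45 bases Fxyd1 was the closest to Fxyd6, with 68.9% identical bases, followed by Fxyd3 with 66.7% and Fxyd5 with 62.2%, and Fxyd2, Fxyd4 and Fxyd7 each shared 60.0%. The signature starts at codon 28 in Fxyd6 and Fxyd1, at codon 29 in Fxyd3 and Fxyd4, and at codon 17 in Fxyd7. Fxyd5 differs in build. Its signature starts at codon 134 of a coding sequence of 534 bases, against 282 bases in Fxyd6 and 276 in Fxyd1, so that a much longer extracellular part stands before it.

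The libraries held between 15390818 and 18947947 counts. Pbrm1, the targeted gene, had 170, 183 and 172 CPM (counts scaled to a library of fixed size) in WT. The cKO libraries had 43.5, 50.7 and 42.7 CPM, or 26% of the WT level on average, and so matched their labels. Of the 15376 genes tested, 6723 were called at an adjusted p under 0.05 (edgeR quasi-likelihood test, Benjamini-Hochberg adjustment), which is 43.7% of the genes. With so many genes called, a call of a single gene has to be read together with the size of its change. Levels below are CPM after normalization of the library sizes, and a count of 3, the floor used for detection, corresponds to between 0.158 and 0.195 CPM per library.

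Apart from Fxyd6, 6 of the other 7 genes were tested and 5 of the 6 were called, where 43.7% of all genes were called. The members were chosen with earlier results of these data known, so this count is a description and says nothing about the family as a set. Atp1b2 is among the 5, but it passed the filter on low counts only through the WT libraries, where it was higher. Its call therefore lends no support. Fxyd1 and Fxyd3 rose, where 21.9% of all genes were called higher, and Fxyd5, Atp1b1 and Atp1b2 fell, where 21.8% of all genes were called lower. Atp1b3 was not called. For the 6 tested genes every library of one group lay on one side of the other group, by a narrow margin for Atp1b3, which held for 53.5% of all genes tested. The family therefore did not move in one direction: Fxyd1, Fxyd3 and Fxyd6 were higher in cKO, while Fxyd5 and Atp1b1 were lower. Fxyd5 was the most abundant Fxyd gene of WT cells.

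**Figure D1:**
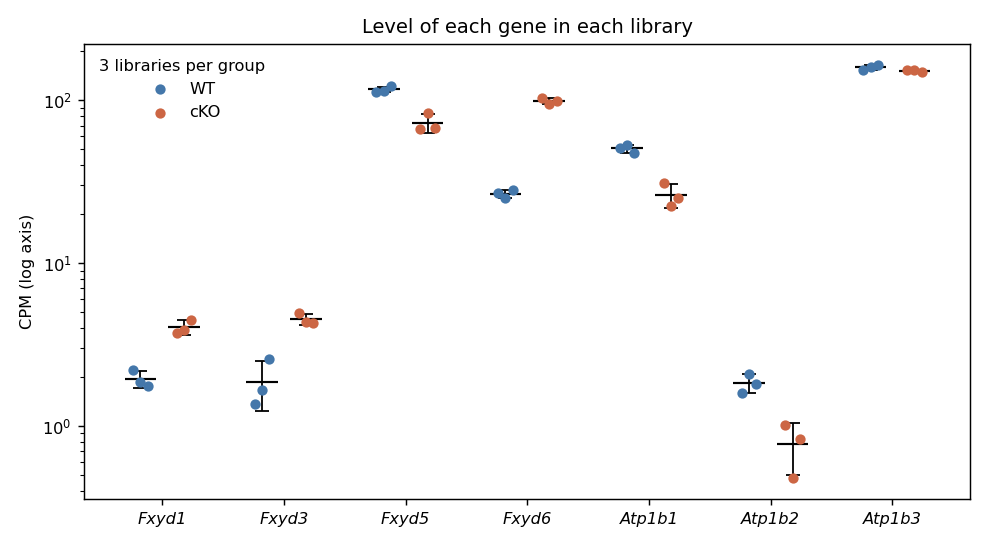
CPM of 7 of the 8 genes in each of the 6 libraries on a log axis, with WT in blue and cKO in orange. Horizontal lines are group means and bars are SDs (n = 3). Fxyd7 is left out because it had at most 3 counts in any library. The cKO libraries lie above the WT libraries for Fxyd1, Fxyd3 and Fxyd6 and below them for Fxyd5, Atp1b1 and Atp1b2, while both groups of Atp1b3 lie between 149 and 165 CPM.

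Fxyd6 (ENSMUSG00000066705.7, GRCm38 chr9:45370185-45396159, plus strand) encodes phosphohippolin, a pump regulator known from brain and inner ear. The WT libraries gave 26.8, 25.2 and 28.2 CPM of Fxyd6, and the cKO libraries gave 103, 94.7 and 99.5 CPM. The groups were far apart, and each was narrow. The mean went from 26.7 ± 1.52 to 99 ± 4.1 CPM (SD, n = 3), a 3.7-fold difference with a fitted log2 fold change of 1.89 (SE 0.060), and 107 of the 15376 genes tested rose more. These values chose the gene and are given with no test. The log2 fold change stayed between 1.85 and 1.93 over 14 other ways of processing, leaving out each library in turn included.

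Fxyd5 (ENSMUSG00000009687.14, chr7:31032722-31042481, minus strand) encodes dysadherin, a FXYD protein with a long extracellular part that is known to weaken cell-to-cell adhesion. Its level was 113, 115 and 122 CPM in WT against 66.6, 83.5 and 67.6 CPM in cKO. The groups did not overlap, and cKO replicate 2 lay above the other cKO libraries. On average it went from 117 ± 4.71 to 72.6 ± 9.47 CPM (SD, n = 3), which left 62.1%. Fxyd5 fell by 0.69 on the log2 scale (SE 0.074, edgeR adjusted p = 7.29e-06), and 12.5% of all genes tested changed more in either direction.

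Fxyd1 (ENSMUSG00000036570.14, chr7:31051678-31057199, minus strand) encodes phospholemman, the FXYD protein of heart and skeletal muscle, whose phosphorylation by protein kinases A and C relieves its brake on the pump. Its level was low, 2.19, 1.87 and 1.76 CPM in WT against 3.71, 3.87 and 4.5 CPM in cKO. The groups did not overlap, with 30 to 37 counts in the WT libraries and 66 to 73 in the cKO libraries. The mean rose 2.08-fold, from 1.94 ± 0.223 to 4.03 ± 0.419 CPM (SD, n = 3). Fxyd1 was called with a log2 fold change of 1.05 (SE 0.18, edgeR adjusted p = 0.0003).

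Fxyd3 (ENSMUSG00000057092.12, chr7:31068172-31076704, minus strand) encodes Mat-8, a FXYD protein found mostly in epithelia and their tumours. Fxyd3 reached 1.36, 1.66 and 2.58 CPM in WT against 4.95, 4.35 and 4.31 CPM in cKO. WT replicate 3 stood nearest to the cKO libraries and still lay below each of them. The mean rose 2.43-fold, from 1.86 ± 0.634 to 4.54 ± 0.357 CPM (SD, n = 3), with a log2 fold change of 1.28 (SE 0.21, edgeR adjusted p = 0.000229). Since Fxyd3 marks epithelia, the epithelial list is given beside it: 7 of its 12 genes were called higher and 1 lower, beside 21.9% and 21.8% of all genes. Their median log2 fold change was 0.17, and their summed level was 1053 to 1151 CPM in WT and 1217 to 1353 CPM in cKO. The part of epithelial cells in the rise of Fxyd3 was not tested. In bulk RNA of this kind, a different number of cells of one type and a different amount of RNA per cell cannot be told apart.

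Fxyd7 (ENSMUSG00000036578.7, chr7:31042513-31051467, minus strand), a FXYD gene known from neurons, had counts of 0, 0 and 1 in WT against 0, 1 and 3 in cKO. Every library was at or under the floor of 3 counts, so no difference could be seen at this depth and no fold is given.

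The remaining Fxyd genes had not been chosen and were looked at for comparison. Fxyd2, the gamma subunit of the kidney pump, had counts of 24, 16 and 20 in WT against 25, 48 and 47 in cKO, and its CPM ranges overlapped. Its mean went from 1.15 ± 0.282 to 2.33 ± 0.831 CPM (SD, n = 3), a log2 fold change of 1.01 (SE 0.30, edgeR adjusted p = 0.0148). The call ended without WT replicate 2 (adjusted p = 0.0693) and without cKO replicate 3 (adjusted p = 0.0623), and adjusted p ranged from 0.000526 to 0.0693 over all alternatives. Fxyd4, a regulator of the pump in the kidney collecting duct, had 4 to 6 counts in each library and was not tested.

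To compare genes with each other, CPM was divided by length. Divided by the summed exon length of each gene, Fxyd5 made up 76.4%, 78.3% and 77% of the summed level of the 7 Fxyd genes in the WT libraries and 36%, 42.9% and 36.3% in the cKO libraries. Fxyd6 made up 18.5%, 17.4% and 18.2% in WT and 56.7%, 49.6% and 54.4% in cKO. The leading Fxyd gene was thus Fxyd5 in each WT library and Fxyd6 in each cKO library on this scale. Fxyd1 went from 2.46% to 4.1% and Fxyd3 from 1.06% to 2.08% of the summed level.

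Which of Fxyd5 and Fxyd6 led in cKO depended on the length used. The summed exon length counts every annotated exon, also those of retained-intron transcripts, and was 4192 bases for Fxyd5 and 4107 for Fxyd6. The median length of the protein-coding transcripts was 817 bases for Fxyd5 and 1788 for Fxyd6. Divided by the latter, an alternative added after the data were seen, Fxyd5 led in both groups, with 86.7% ± 0.744 in WT and 55.9% ± 3.9 in cKO, and Fxyd6 went from 9.06% ± 0.312 to 35.1% ± 3.41 (SD, n = 3). The level of Fxyd6 divided by that of Fxyd5 was 0.233 in WT and 1.41 in cKO on the first scale and 0.105 and 0.632 on the second. Each length is the same in both groups, so the shift from Fxyd5 towards Fxyd6 had to appear on both scales. The second scale therefore lends it no support. The sum, in contrast, was not stable. The summed level went from 36.1 ± 1.5 to 45 ± 1.24 CPM per kilobase of exon and from 165 ± 6.44 to 159 ± 9.42 CPM per kilobase of coding transcript. No test is given for these shares, since Fxyd6 was chosen for its rise.

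**Figure D2:**
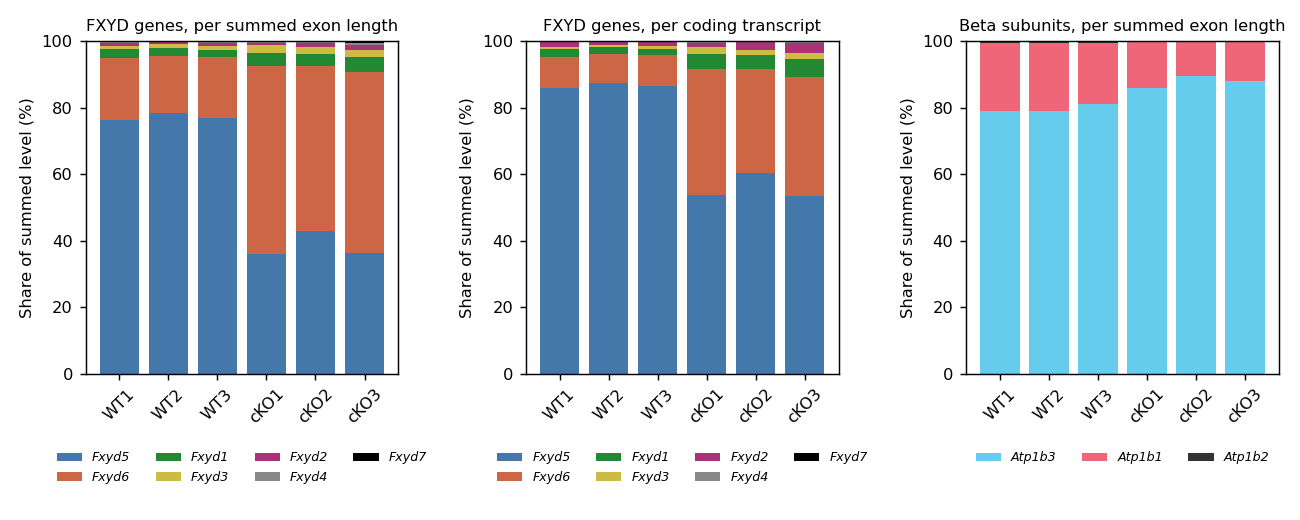
Stacked bars of the share, in percent, that each gene took of the summed level of its group in each of the 6 libraries. The left panel shows the Fxyd genes per summed exon length, the middle panel the Fxyd genes per median coding transcript length, and the right panel the beta subunit genes per summed exon length. Fxyd6 takes 49.6% to 56.7% of the bar in the cKO libraries of the left panel, and Atp1b3 takes 86.1% to 89.5% in those of the right panel.

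Among the beta subunits, Atp1b1 and Atp1b2 fell and Atp1b3 was not called. Atp1b1 (ENSMUSG00000026576.12, chr1:164437109-164458355, minus strand) encodes beta 1, the widespread subunit that also takes part in adhesion between epithelial cells. Levels were 51.1, 53.3 and 47.5 CPM in WT against 31.1, 22.6 and 25 CPM in cKO, with every cKO library below every WT library. From a mean of 50.6 ± 2.94 CPM, 26.2 ± 4.38 CPM or 51.8% remained (SD, n = 3). Atp1b1 fell by 0.95 on the log2 scale (SE 0.095, edgeR adjusted p = 3.42e-06).

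Atp1b2 (ENSMUSG00000041329.13, chr11:69599736-69605942, minus strand) encodes beta 2, first known as an adhesion molecule on glia. It was near the lower end of detection, with 1.6, 2.09 and 1.81 CPM in WT against 1.01, 0.477 and 0.836 CPM in cKO, which were 27 to 39 and 9 to 18 counts. Its mean went from 1.83 ± 0.245 to 0.775 ± 0.273 CPM, which is 42.3% (SD, n = 3), with a log2 fold change of -1.25 (SE 0.29, edgeR adjusted p = 0.00314). With 9 counts in cKO replicate 2, Atp1b2 passed the filter on low counts only through the WT libraries, where it was higher, so its call lends no support. The same limit applies to the 13 alternatives that tested it, where it stayed called with adjusted p up to 0.0191. It was not tested where at least 10 counts were asked of every library.

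Atp1b3 (ENSMUSG00000032412.8, chr9:96332655-96364442, minus strand) encodes beta 3 and was the most abundant beta subunit gene. Its levels were 153, 161 and 165 CPM in WT against 153, 153 and 149 CPM in cKO, so that the groups came close to each other near 153 CPM without overlapping. The means were 159 ± 6 and 151 ± 1.8 CPM (SD, n = 3), a log2 fold change of -0.07 (SE 0.045, edgeR adjusted p = 0.204). It was called under none of the 14 alternatives, with adjusted p from 0.122 to 0.457. An expressed copy could share its reads: the processed pseudogene Gm1848 on the X chromosome matched 805 bases of Atp1b3 at 96.398% identity, and itself had 2.68 ± 0.785 CPM in WT against 2.6 ± 0.457 in cKO. No other gene of the 8 had a copy of at least 90% identity over at least 100 bases. Atp1b1 and Fxyd3 overlap Nme7 and Lgi4 on the opposite strand, and reads were counted by strand.

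Within the summed beta subunit level per exon length, Atp1b1 made up 20.5%, 20.3% and 18.2% in the WT libraries and 13.6%, 10.3% and 11.5% in the cKO libraries. Atp1b3 made up 79%, 79.1% and 81.3% in WT and 86.1%, 89.5% and 88.2% in cKO. The groups did not overlap for either gene, and the exact permutation test gave p = 0.1 for each (two-sided), the smallest value that 3 against 3 libraries allow. Atp1b2 stayed a minor part, at 0.535% in WT and 0.262% in cKO. Per median coding transcript length, the share of Atp1b1 was 19.6% in WT and 11.7% in cKO.

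Of the other genes related to the pump, the muscle gene Atp1b4 and the gastric proton pump gene Atp4b had 0 counts in every library. Atp4a and Atp12a, which encode proton pump catalytic subunits, were also too low to test.

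**Figure D3:**
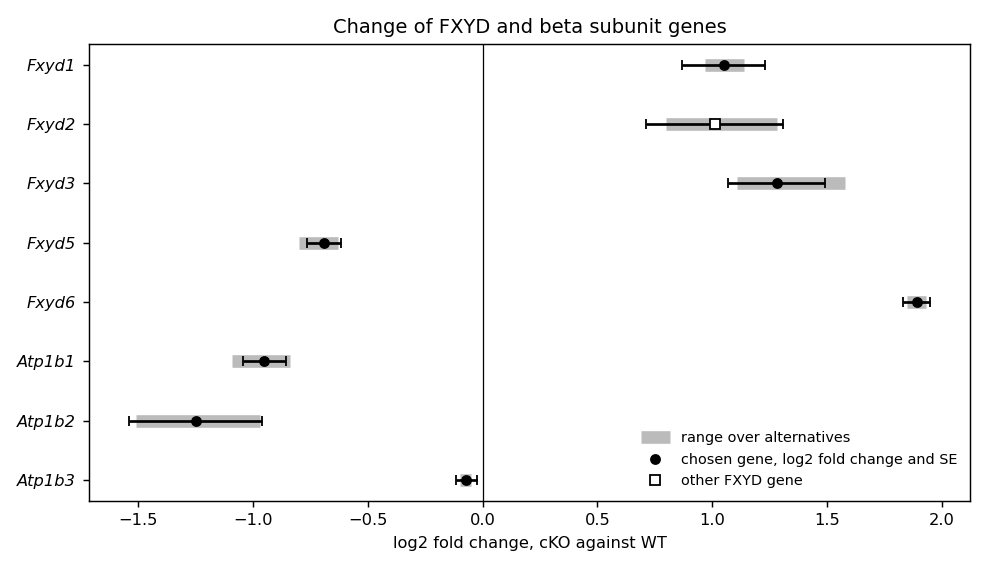
Log2 fold change of cKO against WT for the tested Fxyd and beta subunit genes, with bars for the SE. Filled circles are the chosen genes, the open square is Fxyd2, and grey bands are the range over the alternative settings. Fxyd6 at 1.89 is the highest and Atp1b2 at -1.25 the lowest, and Atp1b3 lies at -0.07.

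Per exon length, the order of the 8 genes in WT was Atp1b3 (66.7 ± 2.51 CPM per kilobase), Fxyd5 (27.9 ± 1.12), Atp1b1 (16.4 ± 0.955), Fxyd6 (6.51 ± 0.37), Fxyd1 (0.887 ± 0.102), Atp1b2 (0.448 ± 0.06), Fxyd3 (0.384 ± 0.131) and Fxyd7 (SD, n = 3). Atp1b2 and Fxyd3 overlapped, and the other neighbours in this order did not. In cKO, Fxyd6 stood second at 24.1 ± 0.998, above Fxyd5 at 17.3 ± 2.26 and Atp1b1 at 8.52 ± 1.42, and Atp1b2 came down to 0.19 ± 0.0667, where it overlapped Fxyd7. Per coding transcript, Fxyd5 led both orders, at 143 ± 5.77 in WT and 88.8 ± 11.6 in cKO, ahead of Atp1b3 at 80 ± 3.01 and 76 ± 0.903.

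The genes next to the Fxyd genes were read as well. Fxyd6 and Fxyd2 lie side by side on chromosome 9 with 3.51 kb between them. Within 100 kb of Fxyd6, 7 other genes were annotated and 2 were tested: Fxyd2 and Dscaml1, an adhesion molecule of neurons, 30.5 kb from Fxyd6. Both were called higher, beside 21.9% of all genes. Dscaml1 had counts of 7, 4 and 3 in WT against 25, 18 and 18 in cKO, or 0.268 ± 0.128 against 1.17 ± 0.226 CPM (SD, n = 3). It passed the filter on low counts only through the cKO libraries, where it was high, and was not tested where at least 10 counts were asked of every library, so its call lends no support. Both neighbours had low levels beside Fxyd6, and Tmprss13, on the other side, had too few counts to test.

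On chromosome 7, Fxyd5, Fxyd7, Fxyd1 and Fxyd3 lie in this order within one cluster on the minus strand. Along it, Fxyd5 fell while Fxyd1 and Fxyd3 rose, so the direction differed within the cluster. Around it, 14 other genes were annotated within 100 kb and 8 tested, of which 1 was called higher and 2 lower, a share near the 43.7% called over all genes. Hamp, which encodes the iron hormone hepcidin, fell by 1.40 on the log2 scale (edgeR adjusted p = 5.76e-05), and Lsr, a receptor for lipoproteins at tricellular junctions, fell by 0.31 (adjusted p = 0.0034). Gramd1a, a cholesterol transfer protein, had a log2 fold change of 0.19 at the edge of the threshold (adjusted p = 0.0475, up to 0.199 over the alternatives), and its call was lost in 9 of the 14 alternatives, DESeq2 and 5 of the 6 that leave out a library among them. Usf2, Gm4673 and Hpn were not called. Fam187b was not called either, with a log2 fold change of 0.59 (adjusted p = 0.377), but passed without WT replicate 1 at 1.66 (adjusted p = 0.022). Its counts were 15, 4 and 3 in WT against 11, 12 and 10 in cKO. It passed the filter on low counts only through the cKO libraries, so this pass lends no support.

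Promoters of 6 of the 8 genes were matched in RefSeq (GRCm38.p6), as the 250 bases before the annotated start. They split by CpG content. Fxyd1 and Fxyd5 held 3 CpG dinucleotides each and Fxyd3 and Fxyd6 held 5, near or below the median of 6 over 32851 promoters, whereas Atp1b1 held 24 and the 2 promoters of Atp1b3 held 24 and 35. A promoter from each end is shown, Fxyd6 (chr9:45369935-45370184, plus strand) and Atp1b1 (chr1:164458356-164458605, minus strand), with CpG in capitals.
Fxyd6 promoter: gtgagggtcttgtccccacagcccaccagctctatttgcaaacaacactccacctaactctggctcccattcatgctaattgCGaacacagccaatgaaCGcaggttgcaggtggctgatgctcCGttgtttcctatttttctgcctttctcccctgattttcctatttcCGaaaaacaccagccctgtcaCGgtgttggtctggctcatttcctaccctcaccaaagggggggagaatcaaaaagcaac
Atp1b1 promoter: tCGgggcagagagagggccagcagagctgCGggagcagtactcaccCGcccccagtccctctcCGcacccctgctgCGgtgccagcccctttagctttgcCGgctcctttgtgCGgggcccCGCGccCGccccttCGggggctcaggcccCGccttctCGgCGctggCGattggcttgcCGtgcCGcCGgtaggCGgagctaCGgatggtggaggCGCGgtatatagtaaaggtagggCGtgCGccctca
Of the genes poor in CpG, Fxyd1, Fxyd3 and Fxyd6 rose and Fxyd5 fell. Of the genes rich in CpG, Atp1b1 fell and Atp1b3 was not called. A relation of CpG content to direction was not tested. Searched on both strands, the GC box GGGCGG was in the promoter of Atp1b1 at 2 positions and in 1 promoter of Atp1b3 at 5, and in 32.7% of all promoters. CCAAT was found once each in the promoters of Fxyd3, Fxyd6 and Atp1b1, and in 33.8% of all promoters. The AP-1 site TGANTCA was in none of these windows and in 6.75% of all promoters. The same held for the TATA box TATAAA (12.4% of all promoters) and the CArG box (1.47%).

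The genes whose profile over the 6 libraries lay nearest to that of Fxyd6 were C1qb, Cygb, Adamtsl1, Galnt16 and Mrc1, by the root-mean-square distance between centred log2 CPM values among 10601 genes. The distances were 0.056 for C1qb, 0.096 for Cygb, 0.122 for Adamtsl1, 0.124 for Galnt16 and 0.140 for Mrc1, against a median of 0.949. C1qb, a complement chain made by macrophages, went from 22.8 ± 1.16 to 82.7 ± 1.12 CPM, and Mrc1, the mannose receptor of macrophages, from 12.1 ± 1.1 to 37.6 ± 3.57 CPM (SD, n = 3). Cygb, a globin of fibroblasts and stellate cells, went from 7.83 ± 0.388 to 27.7 ± 3.06 CPM. Since the libraries form 2 groups, a near profile here says mainly that a gene differed between the groups by a like amount.

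Marker lists of the cell types that such a preparation can hold are given beside these changes. Of 10 leukocyte markers 8 were tested and all 8 were called higher, beside 21.9% of all genes called higher and 21.8% called lower. Their median log2 fold change was 0.67, and their summed level was 667 to 718 CPM in WT against 947 to 1026 CPM in cKO. Of 10 fibroblast markers 9 were tested, 6 called higher and 2 lower, with a median of 0.82 and sums of 1276 to 1290 CPM in WT and 2185 to 2343 CPM in cKO. Pdgfra, which went from 747 to 1319 CPM, held most of this sum and of its rise. The genes called lower were Dpt and Dpp4. The smooth muscle list, with Acta2 at 1287 CPM in WT against 1536 in cKO, had 5 of 8 genes called higher and 1 lower, and its sum was 3470 to 3542 CPM in WT and 4246 to 4737 CPM in cKO. The part of each cell type in these changes was not tested.

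Lists for glia and neurons, where Fxyd6, Fxyd7 and Atp1b2 are best known, gave a mixed picture. Of 10 Schwann and glial markers, 3 were tested and 1 was called, Ngfr, which also occurs on other cells. Foxd3 had at most 3 counts in each library and Sox10 had 3 to 8, while Erbb3 had 166 to 242. The summed level of this list was 33.5 to 37.6 CPM in WT and 40.5 to 43.6 CPM in cKO. Of 8 neuronal markers, 4 were tested, 2 called higher and 2 lower. Rbfox3 was at 0 in every library and Snap25 had at most 1 count. Uchl1 fell from 68.2 ± 3.06 to 41.2 ± 2.66 CPM and Stmn2 from 3.27 ± 0.198 to 1.2 ± 0.435 CPM (SD, n = 3; edgeR adjusted p = 7.59e-07 and 0.000301), in the same direction as Atp1b2, whereas Tubb3 rose from 6.88 ± 0.987 to 11.3 ± 2.32 CPM (adjusted p = 0.00208). Syt1 rose as well, from 1.4 ± 0.348 to 2.68 ± 0.122 CPM (edgeR adjusted p = 0.00343). The sum of the neuronal list was 76.5 to 85 CPM in WT and 55.7 to 59.3 CPM in cKO. Uchl1 held most of this sum in both groups, so the fall of the sum is that of 1 gene and not of the list. The part of nerve cells in the fall of Atp1b2 was not tested. The endothelial list had 2 of 8 genes called higher and 1 lower, with sums of 352 to 373 CPM in WT and 297 to 308 CPM in cKO. The fall of this sum came through Kdr, the gene called lower, which went from 182 to 99.4 CPM. The mesothelial list had 1 of 6 higher and 3 lower, with sums of 325 to 335 and 350 to 381 CPM. The rise of this sum came through Krt19, the gene called higher, which went from 125 to 216 CPM. Msln, Lrrn4 and Upk1b were called lower. In lists this short, such counts are read beside the 43.7% of all genes that were called.

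Transporters that use the sodium gradient were read from a list of 17 genes, of which 10 were tested and 7 called, 1 higher and 6 lower, beside 21.9% and 21.8% of all genes. The median log2 fold change of the list was -0.25, against 0.002 over all genes. The bicarbonate cotransporter gene Slc4a4 fell from 64.4 ± 1.75 to 39.2 ± 1.93 CPM (SD, n = 3; log2 fold change -0.72, edgeR adjusted p = 4.08e-07). Of the phosphate cotransporters, Slc20a1 had a log2 fold change of -0.53 (adjusted p = 2.08e-05) and Slc20a2 of -0.27 (adjusted p = 0.00137), and that of Slc12a2, the sodium-potassium-chloride cotransporter NKCC1, was -0.33 (adjusted p = 9.31e-05).

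Slc8a1, the sodium-calcium exchanger of muscle, was the gene of the list that was called higher. It went from 22 ± 1.41 to 26.5 ± 0.655 CPM (SD, n = 3), with a log2 fold change of 0.26 (SE 0.071, edgeR adjusted p = 0.00856). The proton exchanger gene Slc9a2, at 1.41 ± 0.265 and 0.795 ± 0.266 CPM, had a log2 fold change of -0.83 near the threshold (adjusted p = 0.0398), and its call was lost with DESeq2 (adjusted p = 0.119) and without WT replicate 1 (0.078), WT replicate 3 (0.148), cKO replicate 1 (0.168) or cKO replicate 2 (0.0542). Slc9a2 had 9 counts in cKO replicate 1 and passed the filter on low counts only through the WT libraries, where it was higher. Its call, counted among the 6 lower, therefore lends no support. It was not tested where at least 10 counts were asked of every library. Slc4a7 was also called lower. Slc9a5 and Slc4a8 were not called.

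Regulators of the pump or of other sodium transport were read from a list of 16 genes, such as kinases and partners of the pump. Of these, 15 were tested and 7 called, 2 higher and 5 lower, and the median log2 fold change of the list was -0.04. That share is close to the 43.7% called over all genes. Cav1, the caveolin on whose membrane domains a share of the pumps resides, fell from 236 ± 8.62 to 167 ± 6.96 CPM (SD, n = 3; log2 fold change -0.50, edgeR adjusted p = 2.26e-06). The salt-inducible kinase gene Sik1 rose from 57.6 ± 4.99 to 76.1 ± 4.69 CPM (log2 fold change 0.40, adjusted p = 0.000329), and Agrn, the agrin gene, had a log2 fold change of 0.32 (adjusted p = 0.00549). The kinase genes Prkca, Wnk1 and Stk39 had log2 fold changes of -0.29, -0.23 and -0.22 (adjusted p = 0.000489, 0.00142 and 0.00692), and Src was also called lower. Sgk1, Nedd4, Oxsr1, Prkaca, Wnk4, Nkain1, Nkain2 and Nkain4 were not called.

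**Figure D4:**
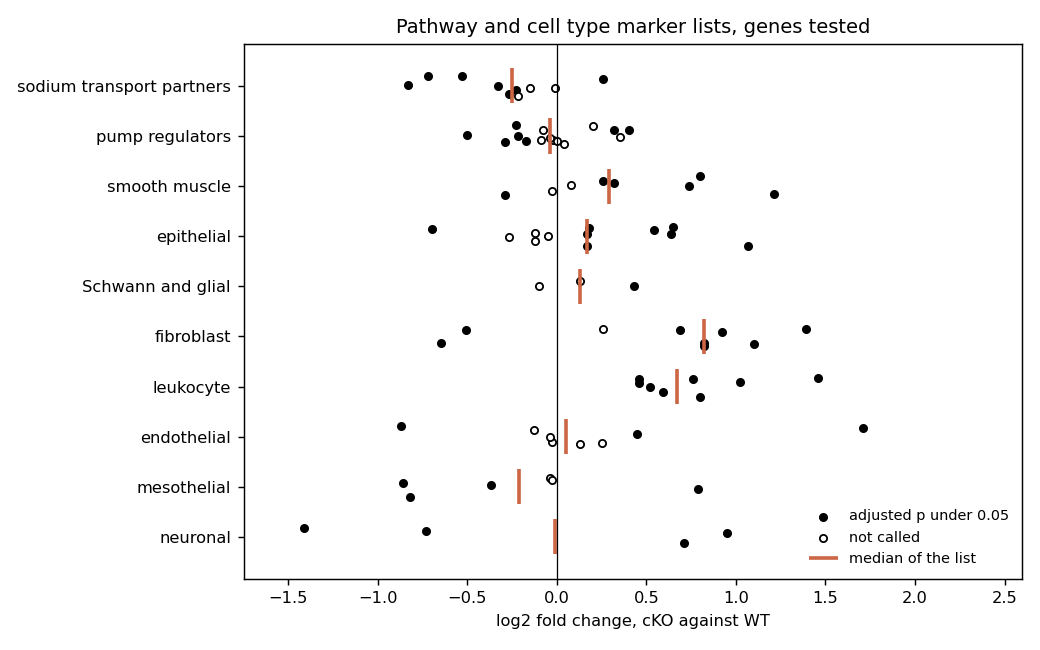
Log2 fold change of cKO against WT for the tested genes of the pathway lists and the cell type marker lists, 1 point per gene, filled where the adjusted p was under 0.05. Vertical bars are list medians, which run from -0.25 for the sodium transport partners to 0.82 for the fibroblast markers. Points are shifted up or down at random for legibility.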

How the data were processed

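Per the file headers, the deposited values were whole-number counts per gene that the authors made with featureCounts 1.6.4 by strand on GENCODE M18 exons after alignment to GRCm38 with HISAT2 (build GRCm38.p5 in the submitters' notes). All 6 libraries were used. Symbols came from GENCODE M21 and covered 54079 of 54232 genes. Genes passing filterByExpr were compared in edgeR 4.0.16 (R 4.3.3) with TMM scaling and the quasi-likelihood test, two-sided, adjusted by Benjamini-Hochberg over the 15376 genes tested. The study used DESeq2. Here DESeq2 1.42.0, limma-voom (limma 3.58.1), other scalings and filters, a replicate block and leaving out each library were alternatives. The scripts were tested on simulated data. Shares were compared by exact permutation. Copies were sought with BLAST 2.17.0. Shares per coding transcript were added after the data were seen. The members, lists and naming rule were chosen with earlier results of these data known. Named were the chosen genes, their paralogs (some genes are not reported here), up to 6 called genes per list, tested neighbours within 100 kb and the 5 profiles nearest to Fxyd6. SDs and counting floors cover the spread between libraries and counting error only.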

Additional observations from a re-analysis of the deposited data

How the results depend on the processing

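Over 14 alternatives, Fxyd1, Fxyd3, Fxyd5, Atp1b1, Atp1b3 and Pbrm1 kept their direction and their side of the threshold. Atp1b2 stayed called in the 13 that tested it. It passed the filter on low counts only through the WT libraries, where it was higher, so this lends no support. Leaving out each library gave log2 fold changes of 0.97 to 1.14 for Fxyd1, 1.11 to 1.58 for Fxyd3, -0.80 to -0.63 for Fxyd5, 1.85 to 1.93 for Fxyd6 and -1.09 to -0.84 for Atp1b1, and 5532 to 7054 genes called. DESeq2 called 5535 genes. With the replicate number as a block 6908 genes were called, and 6617 genes were called with and without it. The correlations of the deviations of same-numbered libraries were -0.0243, 0.0353 and 0.0928, so the numbers were not taken to pair the libraries. Other scalings moved the median of all genes by at most 0.0159 on the log2 scale. The share of Fxyd4 among the Fxyd genes, at 4 to 6 counts per library, changed sign: the difference was -0.0204 percentage points, but ranged from -0.05 to 0.0284 when 1 library was left out (0.0177 without WT replicate 1, 0.0284 without cKO replicate 2) and was 0.0551 per coding transcript length. The difference in the summed Fxyd level changed sign per coding transcript length, to -6.4 CPM per kilobase. The groups overlapped on that scale, with 161, 162 and 172 in WT against 152, 169 and 155 in cKO, so no fall of the sum can be read from it. The 2 scales differ only in the lengths: Fxyd5, which fell, is divided by 817 bases in place of 4192, and Fxyd6, which rose, by 1788 in place of 4107.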
